A study of Arabidopsis thaliana with 12 samples.

Results

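The steady-state difference between cdk8 and wild-type seedlings was measured in the libraries given mock treatment. RNA of whole Arabidopsis thaliana seedlings, 1 week old, was sequenced in 12 libraries, and the 3 cdk8 and 3 wild-type libraries labelled mock, 6 of the 12, were chosen by those labels and by column headings that call them 0h. The other 6 libraries came from the same genotypes given 50 µM abscisic acid (ABA), a stress hormone, for 3 h. They entered the fit through the filter on low counts and the shared estimate of spread, and they serve below to set the genotype difference after ABA beside the one after mock. The labels name the mutant as cdk8 without its allele. The labels leave out what the mock treatment contained, how the seedlings were grown and the hour of harvest. Nor do they state whether the libraries of a group came from separately grown seedlings, so p-values measure the spread between these samples, which may be technical. Because whole seedlings were used, fewer cells of a type and less RNA per cell cannot be told apart.

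CDK8 is the kinase of the Mediator kinase module, which it forms with a C-type cyclin, MED12 and MED13. The module docks reversibly on Mediator, the complex that links DNA-bound transcription factors to RNA polymerase II, and can restrain or promote transcription at individual genes. In Arabidopsis the kinase is encoded by CDKE;1, called CDK8 here, MED12 by CCT and MED13 by GCT.

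CDK8 (AT5G63610, chr5:25463437-25465897, minus strand, TAIR10) measured 21.9, 19.7 and 20.3 CPM (normalised read counts) in wild type and 5.24, 9.32 and 6.01 CPM in cdk8. All 3 cdk8 libraries lay below all 3 wild-type libraries, though reads were still assigned to the gene in each. The log2 fold change of cdk8 over wild type was −1.60 ± 0.23 (SE, n = 3 against 3, adjusted p = 0.000604). Here and below, adjusted p-values are Benjamini-Hochberg values over all genes tested with edgeR's quasi-likelihood test, a gene is called at an adjusted p under 0.05, and CPM are scaled by TMM factors. GCT (0.44 ± 0.14, adjusted p = 0.0506) and CCT (0.46 ± 0.15, adjusted p = 0.0579) measured higher in cdk8 by log2 fold change without being called. GCT was called at 0.0049 with only the 6 mock libraries, and CCT at 0.00763. Of 15 other Mediator subunits in the fit, 1 was called (6.67%, against 13.1% of all tested genes). That was SWP, which encodes the MED14 subunit of the Mediator backbone and rose from 29.1 ± 3.7 to 39.6 ± 1.8 CPM (SD, n = 3, log2 fold change 0.44 ± 0.13, adjusted p = 0.0404). Its call was lost when any mock library but wild-type replicate 1 was left out, with adjusted p up to 0.161. Of the 5 genes annotated on each side of CDK8, SNRK2.5, an SnRK2-family kinase gene 4 positions away, was the 1 called, with a log2 fold change of −0.45 ± 0.13 (adjusted p = 0.0314). It lost its call without any mock library but wild-type replicate 3, with adjusted p up to 0.114.

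Between 18229473 and 21188494 fragments were assigned to genes per mock library, of which mitochondrial and plastid genes took 0.0838% to 0.28%. The first principal component of the 6 mock libraries held 58.1% of the variance and separated the genotypes. At this depth 21151 of 33602 genes were tested, and 2781 (13.1%) were called between the genotypes. In cdk8 1089 genes (5.15%) rose and 1692 (8%) fell. The median log2 fold change was −0.79 among genes that fell and 0.52 among those that rose, and 592 genes fell at least 2-fold where 202 rose as much. At 4-fold the counts were 120 lower and 53 higher. Over all genes tested the median log2 fold change was 0.00189. Each library left out lowered these counts. Without cdk8 replicates 1, 2 and 3 in turn 640, 471 and 716 genes rose, and without wild-type replicates 1, 2 and 3 in turn 622, 544 and 508. Falls numbered 1015 without cdk8 replicate 2 and 1100 without wild-type replicate 3, the 2 omissions that moved that count by over 1.5 times. Called genes were spread over the nuclear chromosomes, at 12.1% of tested genes on chromosome 3 to 14.1% on chromosome 4. None of the 17 mitochondrial and 79 plastid genes tested was called.

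**Figure D1:**
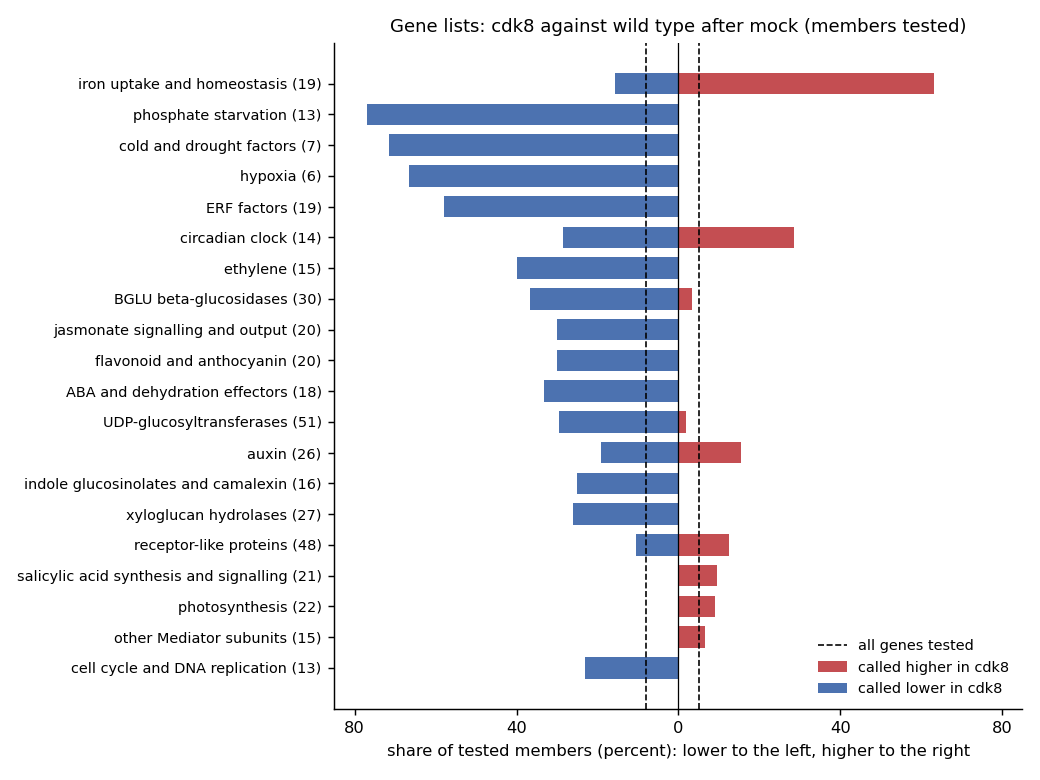
Share of the tested members of each gene list called higher (red, to the right) or lower (blue, to the left) in cdk8 than in wild type after mock, in percent, with the number tested in parentheses. Dashed lines mark the shares over all genes tested, 5.15% higher and 8% lower. A selection of the lists is shown. The lists were chosen with earlier results of these data known, which favours shares away from the dashed lines. Of those shown, the iron list reaches furthest to the right and the phosphate starvation list furthest to the left.

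Some genes of root iron uptake and its regulation measured several-fold to more than 10-fold higher in cdk8, and genes of iron storage fell. Others on the iron list rose less or were not called. In dicots the reductase FRO2 converts ferric to ferrous iron at the root surface and the transporter IRT1 imports it. Both are switched on in iron-deficient roots by the factor FIT (FRU in the annotation) together with the Ib bHLH proteins bHLH38, bHLH39, BHLH100 and BHLH101. Ferritins store iron in plastids, and their genes are typically low when iron is scarce. Of 19 list members in the fit, 12 rose and 3 fell, with a median log2 fold change of 0.69. The promoters of the 4 Ib bHLH genes are shown because these genes rose together. Each line gives the 250 bases before the annotated start, read 5′ to 3′ on the gene's strand, with the G-box CACGTG in capitals.
bHLH38: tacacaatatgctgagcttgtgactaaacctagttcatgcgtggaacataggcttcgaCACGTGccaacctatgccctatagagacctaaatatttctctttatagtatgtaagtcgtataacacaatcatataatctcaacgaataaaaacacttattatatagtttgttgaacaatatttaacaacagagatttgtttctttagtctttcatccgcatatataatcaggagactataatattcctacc
bHLH39: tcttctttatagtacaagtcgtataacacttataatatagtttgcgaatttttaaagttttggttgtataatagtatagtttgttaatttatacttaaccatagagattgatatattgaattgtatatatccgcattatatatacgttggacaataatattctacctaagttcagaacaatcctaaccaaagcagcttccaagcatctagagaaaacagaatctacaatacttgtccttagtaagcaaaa
BHLH100: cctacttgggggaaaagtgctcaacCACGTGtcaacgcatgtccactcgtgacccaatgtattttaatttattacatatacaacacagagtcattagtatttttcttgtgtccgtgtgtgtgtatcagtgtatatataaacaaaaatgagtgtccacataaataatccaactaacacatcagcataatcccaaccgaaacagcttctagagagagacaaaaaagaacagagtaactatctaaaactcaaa
BHLH101: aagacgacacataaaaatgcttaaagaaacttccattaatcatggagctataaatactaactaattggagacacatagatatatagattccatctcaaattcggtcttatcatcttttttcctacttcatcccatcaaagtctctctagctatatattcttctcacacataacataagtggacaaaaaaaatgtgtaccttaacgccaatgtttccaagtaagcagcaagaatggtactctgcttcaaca
These stretches lie on the minus strand at chr3:21085151-21085400, chr3:21087495-21087744, chr2:17199321-17199570 and chr5:1139477-1139726 (TAIR10, letters from the RefSeq genome). A G-box began 192 bases before the start in bHLH38 and 225 bases before it in BHLH100, and these letters were not in the other 2 windows. In windows that also took in 50 bases after the start, 6 of 19 iron genes (31.6%) held the letters, against 9.36% of 21054 promoters of tested genes.

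Among the regulators, bHLH38 (AT3G56970) measured 0.769, 0.38 and 0.686 CPM in wild type and 9.42, 5.6 and 9.51 CPM in cdk8. The lowest cdk8 library was thus several times the highest wild-type library, and the log2 fold change was 3.73 ± 0.42 (adjusted p = 0.000104). Its neighbour bHLH39 (AT3G56980) measured 1.01, 0.618 and 0.317 CPM in wild type and 8.99, 4.27 and 7.22 CPM in cdk8 (log2 fold change 3.37 ± 0.40, adjusted p = 0.000146). BHLH100 (AT2G41240) went from 0.24, 0.38 and 0.845 CPM to 11, 6.32 and 8.16 CPM (log2 fold change 4.13 ± 0.63, adjusted p = 0.00147), or 4.75 without wild-type replicate 3. BHLH101 (AT5G04150) had the highest wild-type level of the 4 per kilobase of exon, at 2.84 CPM per kb where the others had 0.628 to 0.768. It went from 2.02, 1.24 and 2.9 CPM to 10.2, 7.32 and 7.64 CPM (log2 fold change 2.03 ± 0.32, adjusted p = 0.00109). In all 4 genes every cdk8 library lay above every wild-type library. FIT itself was not called. It measured 6.34, 12.1 and 7.92 CPM in wild type and 8.46, 6.88 and 10.3 CPM in cdk8, so that the groups overlapped (log2 fold change −0.03 ± 0.26, adjusted p = 0.955). BTS, a ubiquitin ligase that restrains the iron deficiency response, rose from 72.3 ± 4.5 to 126 ± 10 CPM (SD, log2 fold change 0.80 ± 0.18, adjusted p = 0.0101). PYE, a bHLH factor of the same response, rose from 10.2 ± 1.9 to 15.8 ± 2.5 CPM (SD, log2 fold change 0.64 ± 0.15, adjusted p = 0.0115). The call of PYE was lost without cdk8 replicate 1 or wild-type replicate 2, with adjusted p up to 0.0565.

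Among the uptake genes, FRO2 (AT1G01580) measured 2.79, 2.76 and 2.06 CPM in wild type and 46.1, 34 and 56.8 CPM in cdk8. Every cdk8 library was more than 10 times every wild-type library, and the log2 fold change was 4.16 ± 0.24 (adjusted p = 7.07e-07). IRT1 (AT4G19690) measured 7.25, 10.7 and 2.11 CPM in wild type and 54.1, 37.6 and 59.1 CPM in cdk8 (log2 fold change 2.90 ± 0.35, adjusted p = 0.000186). Wild-type replicate 3 was the lowest library for both genes, and the groups stayed apart. CYP82C4, a cytochrome P450 that makes the iron-mobilising coumarin sideretin, measured 3.07, 6.18 and 0.95 CPM in wild type and 11.7, 7.43 and 19.7 CPM in cdk8 (log2 fold change 1.92 ± 0.46, adjusted p = 0.0152). Its groups barely separated, its call was lost without cdk8 replicate 3 or wild-type replicate 1 (adjusted p up to 0.0806), and its log2 fold change was 2.68 without wild-type replicate 2. DESeq2 did not call it (adjusted p = 0.0583). ABCG37, which exports such coumarins, was not called (log2 fold change 0.37 ± 0.20, adjusted p = 0.245).

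For transport within the plant, NAS2, a nicotianamine synthase whose product carries iron, went from 3.07, 6.94 and 3.8 CPM to 15.4, 13.5 and 24.8 CPM (log2 fold change 1.96 ± 0.30, adjusted p = 0.001). NAS4 rose from 10.4 ± 1.2 to 16.8 ± 4 CPM (SD, log2 fold change 0.69 ± 0.17, adjusted p = 0.0194). OPT3, a phloem iron transporter, rose from 73.7 ± 6 to 108 ± 11 CPM (SD, log2 fold change 0.55 ± 0.12, adjusted p = 0.0109). NAS1 was not called (0.31 ± 0.13 by log2 fold change, adjusted p = 0.125). The fourth gene of this enzyme, NAS3, was not on the list and is named after its values were seen. It fell from 50.3, 42.8 and 37.3 CPM to 8.57, 7.15 and 11.3 CPM (log2 fold change −2.27 ± 0.45, adjusted p = 0.00469), opposite to NAS2 and NAS4. Among the ferritins, FER1 fell from 217, 216 and 187 CPM to 47.6, 78.2 and 57.8 CPM (log2 fold change −1.76 ± 0.19, adjusted p = 5.74e-05), although it shares exon positions with AT5G01595 and its counts are uncertain to that extent. FER4 fell from 35.3 ± 5 to 18.5 ± 3.3 CPM (SD, log2 fold change −0.93 ± 0.15, adjusted p = 0.00144) and FER3 from 42.6 ± 2.8 to 30 ± 2.5 CPM (SD, log2 fold change −0.50 ± 0.13, adjusted p = 0.0183). The groups of all 15 called iron genes did not overlap, which nearly follows from the call. Of the 2781 called genes 2766 had no overlap, and of all genes tested 8067 (38.1%) had none. Calls were lost for NAS4 without cdk8 replicate 1 or 3 or wild-type replicate 2 or 3 (adjusted p up to 0.0839), for OPT3 without cdk8 replicate 1 (0.0523) and for FER3 without cdk8 replicate 1 or 3 or wild-type replicate 2 (up to 0.0748). Markers of root and root hair, tissue in which uptake genes are used, had summed levels of 309 to 357 CPM over the wild-type libraries and 322 to 370 CPM over those of cdk8. Of these 15 markers 2 were called higher (13.3%, against 13.1% of all tested genes), none lower, and none was at 0. By sign alone 7 measured higher and 8 lower, with a median log2 fold change of −0.245.

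**Figure D2:**
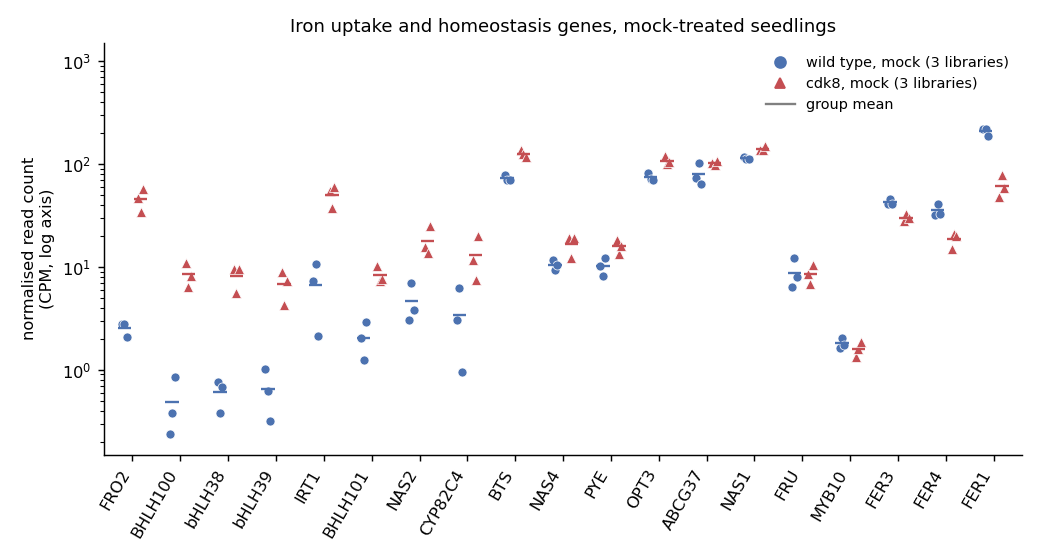
Normalised read count (CPM, log axis) of the 19 iron genes in each of the 3 wild-type (blue circles) and 3 cdk8 (red triangles) mock libraries, with bars at the group means, ordered by log2 fold change. From FRO2 to OPT3 and for the ferritins FER1, FER3 and FER4 the groups are separate, while those of FRU, MYB10 and ABCG37 overlap.

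Genes that Arabidopsis switches on when phosphate is short were lower in cdk8, though the seedlings were not labelled as starved. The response is driven by the factor PHR1, which SPX proteins hold back when phosphate is plentiful, and it remodels membranes by replacing phospholipids with galactolipids and sulfolipids. Of 13 members in the fit, 10 fell and none rose, with a median log2 fold change of −1.0. The promoters of SPX3 and SPX1 are shown with the PHR1 binding letters, P1BS (GNATATNC), in capitals. This motif was chosen after the values of the list were seen.
SPX3: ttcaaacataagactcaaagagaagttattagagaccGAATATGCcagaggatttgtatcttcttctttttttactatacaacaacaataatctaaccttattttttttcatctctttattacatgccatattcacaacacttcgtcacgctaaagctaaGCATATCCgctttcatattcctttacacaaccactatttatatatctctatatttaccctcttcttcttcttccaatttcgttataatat
SPX1: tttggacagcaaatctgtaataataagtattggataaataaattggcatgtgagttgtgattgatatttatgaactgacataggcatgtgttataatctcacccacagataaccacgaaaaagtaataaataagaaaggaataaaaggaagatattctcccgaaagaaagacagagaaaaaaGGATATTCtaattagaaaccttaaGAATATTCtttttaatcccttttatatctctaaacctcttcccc
These stretches lie on the plus strand at chr2:18606160-18606409 and chr5:6802122-6802371 (TAIR10, letters from the RefSeq genome), and both end at the base before the gene's start. SPX3 held the letters 213 and 90 bases before the start, and SPX1 held them at 68 and 44 bases. In windows that also took in 50 bases after the start, 8 of 13 phosphate genes (61.5%) held P1BS, against 5.45% of tested genes, 7.74% of those that fell and 4.68% of those that rose.

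The feedback regulator SPX3 (AT2G45130) measured 6.72, 2.33 and 4.12 CPM in wild type and 0.847, 0.388 and 1.02 CPM in cdk8 (log2 fold change −2.52 ± 0.41, adjusted p = 0.00136). SPX1 (AT5G20150) measured 114, 66.8 and 91.9 CPM in wild type and 36.1, 31.6 and 45.1 CPM in cdk8 (log2 fold change −1.27 ± 0.20, adjusted p = 0.00105). In both genes wild-type replicate 1 was highest and wild-type replicate 2 the lowest of its group, and every cdk8 library lay below. IPS1, a noncoding RNA that sequesters a microRNA of this response, went from 12.8, 3.14 and 7.5 CPM to 1.11, 1.83 and 1.35 CPM (log2 fold change −2.45 ± 0.57, adjusted p = 0.0123). Without cdk8 replicate 1 or wild-type replicate 1 IPS1 was not called, with adjusted p up to 0.0652. AT5G03545, annotated as expressed in response to phosphate starvation and not on the list, went from 104, 60.8 and 84.3 CPM to 18.9, 14 and 12.4 CPM (log2 fold change −2.46 ± 0.23, adjusted p = 2.18e-05). It is named after its values were seen.

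Among lipid-remodelling enzymes, MGDC (AT2G11810, also known as MGD3), a galactolipid synthase, measured 30, 13.4 and 17.8 CPM in wild type and 3.28, 3.11 and 3.59 CPM in cdk8. The cdk8 libraries lay close together and far below the lowest wild-type library, and the log2 fold change was −2.61 ± 0.26 (adjusted p = 4.63e-05). Its relative MGD2 fell from 17.6 ± 3 to 8.75 ± 1.4 CPM (SD, log2 fold change −1.0 ± 0.16, adjusted p = 0.00136). SQD1, of sulfolipid synthesis, fell from 114 ± 19 to 65.8 ± 1.6 CPM (SD, log2 fold change −0.79 ± 0.10, adjusted p = 0.000275). SQD2, the next enzyme, was not called, with 151, 86.8 and 109 CPM in wild type and 87.9, 88.8 and 82.4 CPM in cdk8 (log2 fold change −0.42 ± 0.16, adjusted p = 0.105). The pyrophosphatase PS2 measured 62.5, 22.2 and 40.4 CPM in wild type and 9.31, 10.2 and 8.67 CPM in cdk8 (log2 fold change −2.16 ± 0.33, adjusted p = 0.000874). The acid phosphatase PAP17, which shares exon positions with AT3G17800, fell from 61.5 ± 19 to 31.6 ± 1.3 CPM (SD, log2 fold change −0.96 ± 0.18, adjusted p = 0.00345). RNS1, a secreted ribonuclease, fell from 7.54 ± 2 to 2.17 ± 0.6 CPM (SD, log2 fold change −1.80 ± 0.43, adjusted p = 0.0152). Its call was lost without cdk8 replicate 2 or 3 or wild-type replicate 1 (adjusted p up to 0.0654) and in limma-voom (0.0797).

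Of the transporters, PHT1;4 fell from 52.2, 36.6 and 34.7 CPM to 21.9, 18.3 and 24.6 CPM (log2 fold change −0.93 ± 0.18, adjusted p = 0.00486). PHT1;1, of the same uptake family, measured 46.9 ± 8 and 55.1 ± 3.3 CPM (SD) and was not called. PHO1, which loads phosphate into the xylem, measured 83.1 ± 10 and 66.6 ± 5 CPM (SD) and was not called (adjusted p = 0.166). In all 10 called genes the groups did not overlap, which nearly follows from the call. Of all 2781 called genes 2766 had no overlap, as had 38.1% of all genes tested. Within wild type, replicate 1 was the highest library in 10 of the 10 and replicate 2 the lowest in 8, so these genes varied together among the wild-type libraries. With alternatives and single libraries left out, 8 to 11 of the 13 fell.

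**Figure D3:**
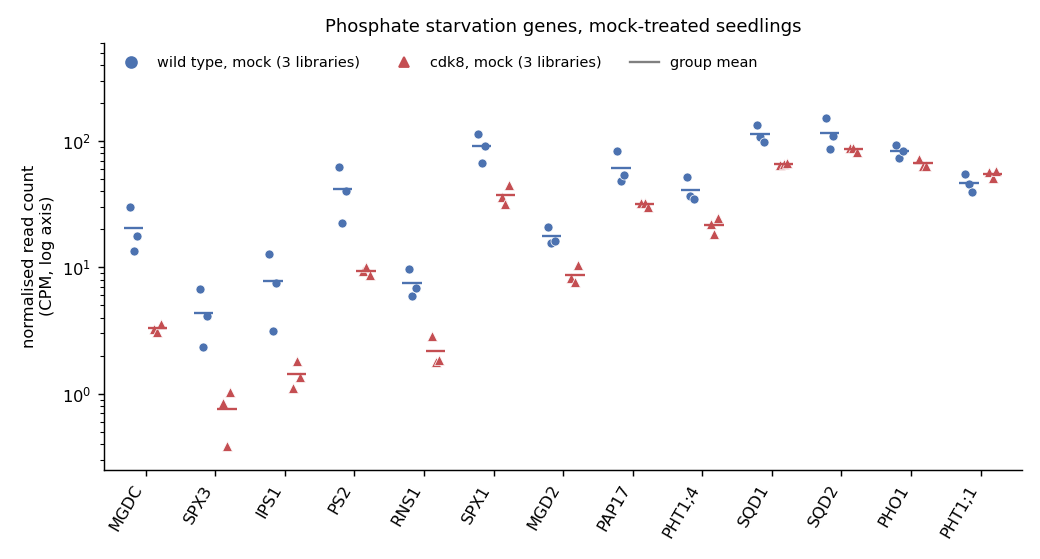
Normalised read count (CPM, log axis) of the 13 phosphate starvation genes in each of the 3 wild-type (blue circles) and 3 cdk8 (red triangles) mock libraries, with bars at the group means, ordered by log2 fold change. The cdk8 libraries lie below all wild-type libraries except for SQD2 and PHT1;1, and the blue points of MGDC, SPX3, IPS1 and PS2 are widely spread with replicate 1 on top.

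Some morning clock genes were higher and some evening genes lower in cdk8, and other clock genes were not called. The plant clock turns on LHY, CCA1 and the related RVE8 around dawn, PRR proteins repress LHY and CCA1 through the day, and the evening complex of ELF3, ELF4 and LUX (PCL1 in the annotation) acts at dusk. Of 14 members 4 rose and 4 fell, and the median log2 fold change was −0.23. LHY (AT1G01060) measured 16.4, 16 and 17.1 CPM in wild type and 36.9, 37.4 and 33 CPM in cdk8 (log2 fold change 1.12 ± 0.10, adjusted p = 1.72e-05). RVE8 (AT3G09600) measured 13.8, 12 and 14.4 CPM in wild type and 29.3, 36.6 and 30.3 CPM in cdk8 (log2 fold change 1.26 ± 0.14, adjusted p = 0.000104). Both means were over 2-fold higher, with little spread inside a group. RVE1, a relative that links the clock to auxin, rose from 24.2 ± 3.3 to 50.6 ± 7.5 CPM (SD, log2 fold change 1.06 ± 0.14, adjusted p = 0.000398). CCA1 rose from 54.4 ± 5.8 to 79.4 ± 9.9 CPM (SD, adjusted p = 0.0271), but was not called without cdk8 replicate 1 or 2 or wild-type replicate 1 or 2 (adjusted p up to 0.121).

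PRR5 (AT5G24470), an evening repressor, measured 44.6, 59.9 and 37.8 CPM in wild type and 18.62, 17.91 and 17.43 CPM in cdk8 (log2 fold change −1.40 ± 0.17, adjusted p = 0.000178). ELF4 (AT2G40080) measured 7.45, 8.37 and 7.02 CPM in wild type and 4.5, 2.5 and 2.89 CPM in cdk8 (log2 fold change −1.21 ± 0.17, adjusted p = 0.000604). FKF1 (AT1G68050), a blue-light F-box protein that acts late in the day, measured 7.16, 8.41 and 6.97 CPM in wild type and 4.97, 3.6 and 3.03 CPM in cdk8 (log2 fold change −0.96 ± 0.20, adjusted p = 0.00666). In these 3 genes every cdk8 library was below every wild-type library. PCL1 (AT3G46640) fell from 20.5 ± 4.3 to 13.7 ± 2.1 CPM (SD, log2 fold change −0.59 ± 0.15, adjusted p = 0.0196) and lost its call without cdk8 replicate 2 or wild-type replicate 1 or 2 (adjusted p up to 0.097). TOC1, GI, PRR7, PRR9, ELF3 and BOA were not called, with log2 fold changes of −0.41 to −0.03. The hour of harvest was not in the labels, and its part in these values was not tested.

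The evening element AAAATATCT, bound by LHY, CCA1 and RVE8, was looked up after these values were seen. FKF1 and PCL1 are shown with it in capitals, in whichever orientation it occurred.
FKF1: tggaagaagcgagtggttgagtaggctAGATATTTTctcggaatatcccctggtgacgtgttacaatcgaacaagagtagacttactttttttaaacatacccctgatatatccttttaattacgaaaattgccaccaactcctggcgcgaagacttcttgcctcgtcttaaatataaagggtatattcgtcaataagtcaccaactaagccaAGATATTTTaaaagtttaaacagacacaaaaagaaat
PCL1: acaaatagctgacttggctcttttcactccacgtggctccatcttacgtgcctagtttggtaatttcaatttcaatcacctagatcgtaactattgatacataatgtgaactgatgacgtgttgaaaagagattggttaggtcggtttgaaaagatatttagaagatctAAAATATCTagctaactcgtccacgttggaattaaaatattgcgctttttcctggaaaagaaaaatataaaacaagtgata
The stretches lie on the plus strand at chr1:25508426-25508675 and chr3:17182820-17183069 (TAIR10, letters from the RefSeq genome). FKF1 held it 223 and 37 bases before the start, and PCL1 held it 81 bases before the start. Of 14 clock genes, 5 (35.7%) held the letters in the windows of 250 bases before and 50 after the start. Among all genes they were in 571 of 21054 promoters (2.71%), in 102 of 1692 genes that fell (6.03%) and in 26 of 1089 that rose (2.39%). The TATA box TATAAA was in 49.6% of all promoters, 60.2% of those of genes that fell and 51.1% of those that rose. The same shares were 9.36%, 11.8% and 11.2% for the G-box, 12.5%, 14.5% and 14.8% for the ABRE core ACGTGNC, 32.3%, 31.1% and 31.9% for the W-box (TTGACC or TTGACT), and 3.8%, 3.61% and 2.2% for the GCC box GCCGCC. Each was searched on both strands, and a G-box followed by NC is also counted as an ABRE core. These shares describe letters in the windows and no test was made of them.

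Ethylene response factors (ERFs) and the CBF and zinc-finger factors of cold, drought and wounding responses were lower in cdk8. Their genes are known for fast induction by handling, cold, wounding or microbes. Of 19 genes named ERF with a number, 11 fell and none rose (median log2 fold change −0.96). Of 7 cold and drought factors 5 fell and none rose (median −1.04). ERF6 (AT4G17490), an activator of stress genes in growing leaves, measured 51.6, 55.8 and 46.6 CPM in wild type and 12.9, 9.6 and 15 CPM in cdk8 (log2 fold change −2.04 ± 0.36, adjusted p = 0.00251). Its close relative ERF5 (AT5G47230) measured 36.9, 39.8 and 35 CPM in wild type and 10.4, 7.43 and 11.4 CPM in cdk8 (log2 fold change −1.93 ± 0.17, adjusted p = 1.82e-05). The repressor ERF4 (AT3G15210) measured 49.5, 38.8 and 43 CPM in wild type and 16.9, 12.4 and 13.7 CPM in cdk8 (log2 fold change −1.61 ± 0.13, adjusted p = 7.85e-06). In each of these 3 genes the highest cdk8 library lay far below the lowest wild-type library.

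The related ERF13, ERF11, ERF2 and ERF104, inducible by wounding or microbes, fell with log2 fold changes of −2.07, −1.88, −1.44 and −1.18. RAP2.6 fell by 1.45 on the log2 scale, with its call lost without cdk8 replicate 1 or wild-type replicate 2 (adjusted p up to 0.068) and in limma-voom (0.076). In cdk8 replicate 2 the level was the lowest of the group for 10 of the 11 ERF genes that fell. ERF1, a factor of ethylene and jasmonate defence, was low in both groups and not called (0.703 ± 0.34 and 0.563 ± 0.18 CPM, SD). CBF1 (AT4G25490), an activator of the cold regulon, measured 1.3, 1.14 and 1.06 CPM in wild type and 0.212, 0.0555 and 0.233 CPM in cdk8. These levels rest on 71 and 10 reads, a ratio of 6.82 with a 95% counting interval of 3.5 to 14.8. CBF2 (AT4G25470) measured 3.79, 3.47 and 4.96 CPM in wild type and 1.91, 1.33 and 1.4 CPM in cdk8 (log2 fold change −1.39 ± 0.23, adjusted p = 0.00168). DREB1A, the third gene of that cluster (CBF3), was not called (log2 fold change −0.79 ± 0.31, adjusted p = 0.11). The zinc-finger repressors ZAT6 and STZ (also ZAT10) fell by 1.5 ± 0.16 (adjusted p = 5.14e-05) and 1.04 ± 0.15 (adjusted p = 0.000529) on the log2 scale, and RHL41 (ZAT12) was not called (adjusted p = 0.124). DREB2A, of heat and drought responses, fell from 8.29 ± 2.2 to 4.33 ± 0.06 CPM (SD, log2 fold change −0.94 ± 0.20, adjusted p = 0.00772).

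**Figure D4:**
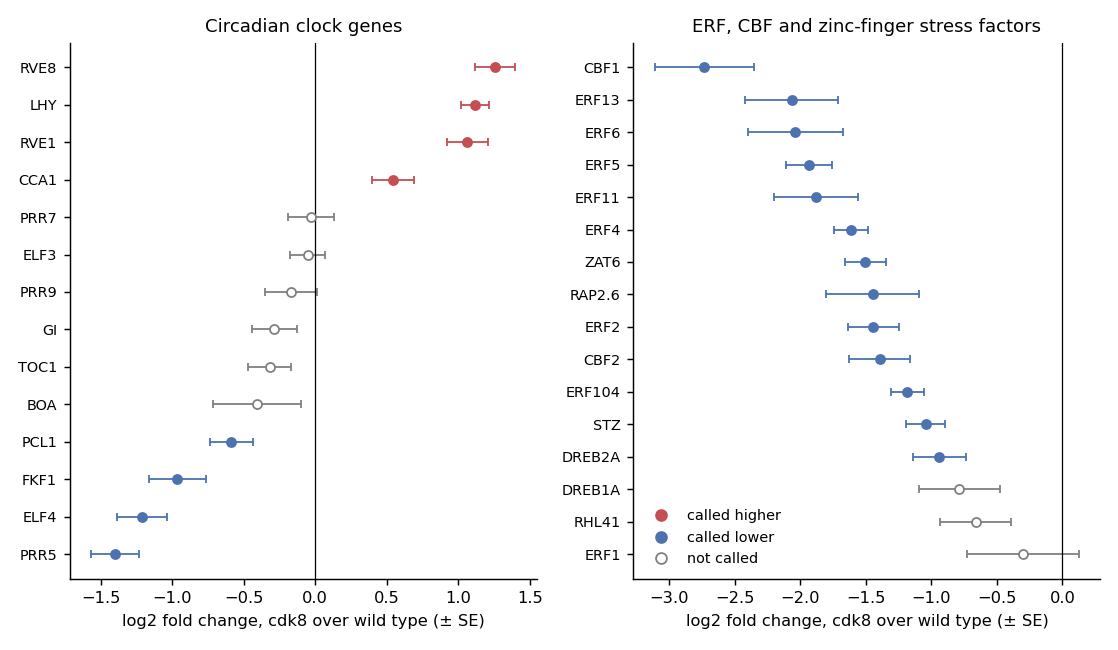
Log2 fold change of cdk8 over wild type after mock (points) with its standard error (bars) for the 14 clock genes (left) and 16 ERF, CBF, DREB and zinc-finger genes (right). Filled points are called and open points are not. LHY, RVE8, RVE1 and CCA1 lie to the right of 0 and PRR5, ELF4, FKF1 and PCL1 to the left, while every called stress factor lies to the left.

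Called genes of other stress-inducible lists were also lower, where 8% of all tested genes fell and 5.15% rose. Of 6 hypoxia genes 4 fell and none rose (median log2 fold change −1.12). PDC2, a pyruvate decarboxylase of fermentation, fell from 59.1 ± 7.8 to 29.6 ± 1.7 CPM (SD, adjusted p = 0.000104), and the sucrose synthase SUS4 from 7.43 ± 0.28 to 2.42 ± 0.12 CPM (SD, adjusted p = 0.000659). ADH1, alcohol dehydrogenase, fell from 12.1 ± 2.3 to 5.8 ± 0.37 CPM (SD, adjusted p = 0.000902) but shares exon positions with AT1G77122. LBD41, a transcription factor induced by low oxygen, fell by 1.55 on the log2 scale and was not called without cdk8 replicate 1 or 2 or wild-type replicate 2 (adjusted p up to 0.0722). Of 9 heat shock genes 3 fell and none rose. They were the factors HSFA2 (log2 fold change −1.94 ± 0.41, adjusted p = 0.00745) and HSFB2A (−0.99 ± 0.10, adjusted p = 5.49e-05) and the small chaperone HSP18.2 (−1.75 ± 0.26, adjusted p = 0.000785). By sign 6 of the 9 measured lower and 3 higher, the latter up to a log2 fold change of 2.76 without a call (median −0.31). The calmodulin-like touch gene TCH3 measured 216, 225 and 178 CPM in wild type and 49.7, 38.4 and 84.8 CPM in cdk8 (log2 fold change −1.84 ± 0.27, adjusted p = 0.000677), and 2 of 3 touch genes fell. CAF1a, a deadenylase induced by many stresses, fell from 41.2 ± 3.2 to 11.4 ± 2 CPM (SD, adjusted p = 5.57e-06). How the seedlings were handled before harvest is not given in the sources used here, and its part in these values was not tested.

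Called genes of the jasmonate, ethylene and pattern-triggered immunity lists were all lower in cdk8, though most members of each list were not called. Of 20 jasmonate signalling and output genes 6 fell and none rose, of 15 ethylene genes 6 fell and none rose, of 13 jasmonate synthesis genes 3 fell and none rose, and of 10 genes of pattern-triggered immunity 2 fell and none rose. Of 21 salicylic acid genes 2 rose and none fell, a share of 9.52% where 13.1% of all tested genes were called. One of these was DMR6, a salicylic acid hydroxylase and susceptibility gene, which rose from 21.6 ± 4 to 41 ± 3.3 CPM (SD, log2 fold change 0.93 ± 0.15, adjusted p = 0.00111). The storage protein VSP2, a jasmonate marker, measured 106, 99.1 and 169 CPM in wild type and 46.2, 39.4 and 23.5 CPM in cdk8 (log2 fold change −1.78 ± 0.28, adjusted p = 0.00105). The jasmonate-degrading enzyme CYP94C1 fell from 3.71 ± 0.98 to 1.19 ± 0.23 CPM (SD, adjusted p = 0.00108) and the chitin-binding protein PR4 from 171 ± 12 to 103 ± 20 CPM (SD, adjusted p = 0.00756). The factor ORA59, which drives plant defensins, fell by 1.32 ± 0.32 on the log2 scale (adjusted p = 0.0149) and lost its call without cdk8 replicate 1 or 2 or wild-type replicate 1 (up to 0.071). Its target PDF1.2 measured 1.78, 3.8 and 1.69 CPM in wild type and was at 0 in all 3 cdk8 libraries. Against a floor of 3 reads over the group it was at least 47.7-fold lower, and PDF1.3 at least 52.8-fold and PDF1.2c at least 9.28-fold lower. These defensin genes are near-identical copies, so that reads could be split among them, and PDF1.2c was not called without any mock library but wild-type replicate 1 (adjusted p up to 0.0792).

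Among defence regulators, WRKY40 measured 36.3, 25.3 and 31.3 CPM in wild type and 6.56, 4.33 and 6.8 CPM in cdk8 (log2 fold change −2.38 ± 0.24, adjusted p = 4.89e-05). WRKY33, the activator of camalexin synthesis, measured 166, 139 and 144 CPM in wild type and 62.3, 58.3 and 87.1 CPM in cdk8 (log2 fold change −1.11 ± 0.22, adjusted p = 0.00488). Both share exon positions with a neighbouring gene, AT1G80850 and AT2G38480, and no library of a group reached the other. WRKY22, a factor of the flagellin response, fell from 15.6 ± 0.97 to 9.35 ± 0.74 CPM (SD, adjusted p = 0.000475), and the flagellin receptor gene FLS2 (AT5G46330) from 25.1 ± 1.4 to 14.3 ± 1.5 CPM (SD, adjusted p = 0.00336). AZI1, a lipid-transfer protein of systemic immunity, measured 203, 182 and 88.7 CPM in wild type and 20.8, 31.4 and 24.8 CPM in cdk8 (log2 fold change −2.62 ± 0.45, adjusted p = 0.00188). Of 16 genes of indole glucosinolates and camalexin 4 fell and none rose. MYB51, the activator of indole glucosinolate synthesis, measured 34.5, 31.2 and 24.9 CPM in wild type and 7.72, 7.38 and 9.97 CPM in cdk8 (log2 fold change −1.85 ± 0.14, adjusted p = 6.72e-06). PAD3, the last enzyme of camalexin synthesis, measured 30.5, 10.3 and 22.8 CPM in wild type and 3.12, 2.22 and 6.8 CPM in cdk8 (log2 fold change −2.36 ± 0.37, adjusted p = 0.00117, and −2.98 without cdk8 replicate 3). The methyltransferase IGMT1 (−0.67) and the P450 CYP81F4 (−0.84, with exon positions shared with AT4G37409), which modify indole glucosinolates, fell less by log2 fold change. ESM1, which steers glucosinolate breakdown towards isothiocyanates, went from 376, 462 and 310 CPM to 67.9, 63 and 71.3 CPM (log2 fold change −2.50 ± 0.21, adjusted p = 1.03e-05) and is named after its values were seen. Of 17 aliphatic glucosinolate genes 4 fell and none rose.

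Of 20 flavonoid genes 6 fell and none rose (median log2 fold change −0.43). TT8, a bHLH regulator of anthocyanin and proanthocyanidin genes, fell from 1.18 ± 0.091 to 0.381 ± 0.098 CPM (SD, adjusted p = 0.00177), and MYB12, the activator of flavonol synthesis, from 4.45 ± 0.58 to 2 ± 0.31 CPM (SD, adjusted p = 0.0083). GSTF12, needed to bring anthocyanin into the vacuole, fell by 1.03 ± 0.23 on the log2 scale (adjusted p = 0.011) and was not called without cdk8 replicate 2 (0.0583). Of 30 BGLU beta-glucosidases, enzymes that free glucose from hormones, lignin precursors and defence compounds, 11 fell and 1 rose. BGLU7 measured 29.2, 20.4 and 28.9 CPM in wild type and 6.83, 5.6 and 4.94 CPM in cdk8 (log2 fold change −2.18 ± 0.15, adjusted p = 4.55e-06). BGLU44 fell from 500 ± 62 to 177 ± 5.4 CPM (SD, adjusted p = 2.79e-05) and BGLU45, of lignin precursor release, from 5.45 ± 0.5 to 1.01 ± 0.1 CPM (SD, adjusted p = 0.000217). Of 51 UDP-glucosyltransferases 15 fell and 1 rose, and of 25 tau class glutathione transferases 5 fell and 1 rose, among them GSTU25 (67.3 ± 10 to 20.5 ± 3.1 CPM, SD, adjusted p = 0.0022). Of 27 xyloglucan hydrolases, which loosen the cell wall, 7 fell and none rose, XTH9 and XTH7 by 1.07 each on the log2 scale. Receptor families were mixed. Of 48 receptor-like proteins 6 rose and 5 fell, with RLP22 higher (log2 fold change 1.35 ± 0.20, adjusted p = 0.000742) and RLP19 lower (−1.09 ± 0.17, adjusted p = 0.000874), and of 34 cysteine-rich receptor-like kinases 3 rose and 4 fell. CRK4 measured 4.85, 2.09 and 2.22 CPM in wild type and 14, 15.9 and 15.7 CPM in cdk8 (log2 fold change 2.31 ± 0.31, adjusted p = 0.000402). Among 170 cytochrome P450s 13 rose and 27 fell. Among 57 WRKY, 57 NAC and 87 MYB factors 4, 3 and 6 rose and 10, 7 and 8 fell. Of all tested genes 13.1% were called, and the shares of NAC (17.5%) and MYB factors (16.1%) were near that.

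Components of ABA signalling were called in either direction. Over all tested genes 5.15% rose and 8% fell, the shares to set beside the counts that follow. Of 9 ABA receptors 2 fell, PYL6 (11.7 ± 3.8 to 4.14 ± 1.8 CPM, SD, adjusted p = 0.00637) and PYL5 (30.7 ± 6.9 to 19.3 ± 1.8 CPM, SD, adjusted p = 0.00902). Of 9 clade A phosphatases, which block the pathway, HAI2 (log2 fold change −1.32 ± 0.25) and ABI1 (−0.51 ± 0.09) fell and HAB1 (0.51 ± 0.11) rose. The kinase gene OST1, of stomatal closure, measured 22 ± 0.56 and 20.6 ± 1.6 CPM (SD) and was not called (adjusted p = 0.587). The list of SnRK2 kinases and ABA transcription factors had 1 rise and 2 falls among 8 tested genes. ABF1, a bZIP factor that shares exon positions with AT1G49730, fell by 0.57 ± 0.08 on the log2 scale (adjusted p = 0.00079). The ABA hydroxylase CYP707A3 fell from 8.07 ± 0.3 to 3.54 ± 0.64 CPM (SD, adjusted p = 0.000275). It was the only gene called of 11 for ABA synthesis and breakdown (9.09%, against 13.1% of all tested genes). Of 18 ABA and dehydration effectors 6 fell and none rose, among them the cold-regulated chloroplast protein COR15B (log2 fold change −1.31 ± 0.28, adjusted p = 0.00723) and the NAC factor RD26 (−0.47 ± 0.09, adjusted p = 0.00361). Of 26 auxin genes 4 rose and 5 fell. The repressor IAA14 (log2 fold change 0.79 ± 0.14), the efflux carrier PIN3 (0.67 ± 0.12) and the biosynthetic enzyme YUC2 (0.97 ± 0.21) rose, and the auxin-induced repressors IAA2 (−0.55 ± 0.10) and IAA19 (−0.89 ± 0.17) fell. BAS1, which inactivates brassinosteroids, rose from 13.6 ± 1.2 to 27 ± 1.7 CPM (SD, adjusted p = 0.000133). The ethylene receptor ETR2 fell from 12.5 ± 3.4 to 6.21 ± 0.44 CPM (SD, adjusted p = 0.00283), and ACS6, of ethylene synthesis, by 0.54 ± 0.10 on the log2 scale (adjusted p = 0.00397).

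The petal and stamen identity gene PI (AT5G20240) measured 0.384, 0.523 and 0.634 CPM in wild type and 4.39, 4.6 and 4.66 CPM in cdk8 (log2 fold change 3.14 ± 0.26, adjusted p = 9.45e-06). SEP3 (AT1G24260), another floral homeotic gene, went the other way, from 11.9, 12.5 and 6.76 CPM to 3.12, 3.05 and 2.8 CPM (log2 fold change −1.80 ± 0.25, adjusted p = 0.000428). The libraries of a group lay close together for PI, and for neither gene did the groups overlap. LFY, the floral meristem regulator, rested on 22 and 3 reads, a ratio of 7.04 with a 95% counting interval of 2.12 to 36.7, and was not called (adjusted p = 0.0511). AP1, AP3, AG, SEP1 and SEP2 were too low to be tested, and the summed level of the 3 tested flower markers was 7.81 to 13.3 CPM over the wild-type libraries and 7.51 to 7.65 CPM over those of cdk8. Of 12 flowering-time genes, MAF4 (log2 fold change −1.30 ± 0.26, adjusted p = 0.00469) and MAF5 (−1.97 ± 0.40, adjusted p = 0.00589), neighbouring repressors of flowering, fell. In the stomatal lineage FMA (FAMA), which sets guard cell fate, rose from 12.7 ± 0.28 to 18.8 ± 0.65 CPM (SD, adjusted p = 0.00603) and the guard cell potassium channel KAT1 from 24.8 ± 1.5 to 51.1 ± 7.7 CPM (SD, adjusted p = 0.000351). SDD1, a protease that limits stomatal density, fell from 8.69 ± 0.67 to 3.69 ± 0.23 CPM (SD, adjusted p = 0.000217). Of the 13 guard cell and stomatal markers 2 rose and 3 fell (38.5%, against 13.1% of all tested genes), and none was at 0. By sign 7 measured higher and 6 lower, with a median log2 fold change of 0.055. Their summed level was 133 to 146 CPM over the wild-type libraries and 156 to 181 CPM over those of cdk8. Within that sum KAT1 alone went from a mean of 24.8 to 51.1 CPM.

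SCR, which patterns the root ground tissue, rose from 25.8 ± 2.2 to 37.2 ± 3 CPM (SD, adjusted p = 0.00285). None of 5 trichome markers was called, nor any of the 6 seed markers in the fit, of 12 listed. The summed level of these 6 ran from 0.57 to 13.2 CPM over the wild-type libraries and 3.44 to 12.3 CPM over those of cdk8. By sign 5 measured higher and 1 lower (median log2 fold change 1.46), and after ABA all 6 were called higher. The other listed seed markers were too low to be tested, among them LEC1, at 0 in the mock libraries. Of 22 photosynthesis genes 2 rose and none fell, a share of 9.09% where 13.1% of all tested genes were called. Of 13 cell cycle genes 3 fell and none rose, among them SYP111 (KNOLLE), of cell plate formation (42.6 ± 2.1 to 23 ± 1.1 CPM, SD, adjusted p = 0.00265), and CYCA1;1, a mitotic cyclin (log2 fold change −0.80 ± 0.18, adjusted p = 0.0101), which was not called without cdk8 replicate 2 (0.0538). Of 15 cuticular wax genes 1 rose and 2 fell (median log2 fold change −0.057). The rise was that of CER3, from 65.7 ± 2.2 to 108 ± 11 CPM (SD, adjusted p = 0.00636). Of 11 cutin genes 2 fell and none rose. Among these falls was CYP86A4, a fatty acid hydroxylase, from 13.4 ± 0.75 to 4.48 ± 0.46 CPM (SD, adjusted p = 0.002). The nitrate reductase NIA2 fell from 789 ± 101 to 485 ± 8 CPM (SD, adjusted p = 0.00639). None of 7 sugar starvation genes was called.

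Among the largest changes, 2 transcripts were almost lost in cdk8. They belonged to no list and are named after their values were seen. AT4G01390, annotated as a TRAF-like protein, measured 50, 39.9 and 53.3 CPM in wild type and 1, 0.665 and 1.4 CPM in cdk8 (log2 fold change −5.51 ± 0.20, adjusted p = 3.95e-09). AT3G57880, annotated as a calcium-dependent lipid-binding protein, measured 24.6, 21.9 and 22.6 CPM in wild type and 0.37, 1.94 and 0.839 CPM in cdk8 (log2 fold change −4.47 ± 0.40, adjusted p = 1.69e-05, and −5.21 without cdk8 replicate 2). Both also fell after ABA, with log2 fold changes of −4.88 and −4.51. Of genes with a symbol, AACT1 (AT5G61160), annotated as an anthocyanin acyltransferase, rested on 424 reads in wild type and 4 in cdk8. The ratio was 102, with a 95% counting interval of 39.5 to 375. DIN11, a dark-inducible oxygenase, rested on 393 and 10 reads, a ratio of 37.7 with an interval of 20.3 to 79.3. For both the fitted fold moved by over 1.5 times without cdk8 replicate 3, to a log2 fold change of −5.92 for AACT1 and −6.76 for DIN11, and limma-voom did not call DIN11 (adjusted p = 0.1).

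Other large falls were named by their size alone. BAM5, a cytosolic beta-amylase, measured 9.22, 7.32 and 6.18 CPM in wild type and 0.317, 0.499 and 0.699 CPM in cdk8 (log2 fold change −3.87 ± 0.60, adjusted p = 0.00102). CWINV5, annotated as a cell wall invertase, fell from 6.61 ± 1.8 to 0.648 ± 0.2 CPM (SD, adjusted p = 5.19e-05), and GAD4, a glutamate decarboxylase, from 12.6, 5.47 and 19.7 CPM to 1.11, 0.832 and 1.26 CPM (log2 fold change −3.53 ± 0.45, adjusted p = 0.000249). GPT2, a plastid glucose phosphate transporter induced by sugar, measured 21, 7.65 and 14.2 CPM in wild type and 1.48, 1.17 and 2.24 CPM in cdk8 (log2 fold change −3.11 ± 0.53, adjusted p = 0.00186). Wild-type replicate 2 was the lowest of its group for GAD4 and GPT2. The same library stood out for ABCG40, an ABA importer, which measured 36.5, 4.66 and 40.8 CPM in wild type and 2.96, 1.83 and 3.54 CPM in cdk8 (log2 fold change −3.28 ± 0.60, adjusted p = 0.00291). limma-voom did not call ABCG40 (0.0749). PP2-A5, a lectin-like protein, fell from 8.34 ± 0.51 to 0.952 ± 0.68 CPM (SD, adjusted p = 0.00612, log2 fold change −3.09, or −3.80 without cdk8 replicate 3), and its phloem relative PP2-A1 from 135 ± 3.6 to 51.3 ± 3.2 CPM (SD, adjusted p = 4.63e-06). The purple acid phosphatase PAP14 fell from 15.2, 2.38 and 6.6 CPM to 1.32, 1.05 and 0.979 CPM (adjusted p = 0.00598), and its log2 fold change of −2.85 was −2.0 without wild-type replicate 1. PRXCA, a cell wall peroxidase, fell from 72.5 ± 16 to 12.2 ± 4.1 CPM (SD, adjusted p = 4.33e-05). FRO5, a reductase of the FRO2 family, fell from 10.1 ± 2.3 to 1.69 ± 0.45 CPM (SD, adjusted p = 0.000436), opposite to FRO2. MRU1 fell by 2.91 ± 0.30 on the log2 scale (adjusted p = 5.26e-05).

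Beyond the iron genes, rises included GLP9, a germin-like protein, which measured 2.55, 5.47 and 2.69 CPM in wild type and 35.3, 27.8 and 53.2 CPM in cdk8 (log2 fold change 3.44 ± 0.38, adjusted p = 0.000103). SAG29, a senescence-associated sugar transporter, measured 3.46, 1.57 and 4.59 CPM in wild type and 16, 17 and 9.37 CPM in cdk8 (log2 fold change 2.15 ± 0.29, adjusted p = 0.000378). PEN3 (AT5G36150), here a triterpene synthase and not the transporter of the same name, rose from 7.03 ± 1.8 to 26.2 ± 5 CPM (SD, adjusted p = 0.000171). In none of these 3 genes did the groups overlap. The protease inhibitor TI1 rose from 16.7 ± 3.1 to 50.4 ± 16 CPM (SD, adjusted p = 0.00129). CYP82C2, a defence P450 and relative of CYP82C4, rose by 1.68 ± 0.47 on the log2 scale (adjusted p = 0.032), and its call was lost without any mock library but cdk8 replicate 2 (up to 0.143). Among the rises with the smallest adjusted p were the RING-finger genes BRG3 (23.5 ± 0.42 to 52.9 ± 1.6 CPM, SD, adjusted p = 5.57e-06) and BRG2 (13.9 ± 1.5 to 30.6 ± 1.3 CPM, SD, adjusted p = 4.63e-05) and the transporter UMAMIT30 (28.8 ± 3.1 to 54.9 ± 3.5 CPM, SD, adjusted p = 4.89e-05). Among the falls with the smallest were the MYB factors MYBR1 (log2 fold change −1.34 ± 0.10, adjusted p = 5.57e-06) and MYB73 (−1.13 ± 0.09, adjusted p = 6.51e-06), which share exon positions with AT5G67310 and AT4G37270.

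The same contrast was taken between the 6 libraries given ABA, whose levels are no part of the mock fold changes, although both contrasts share 1 filter and 1 estimate of spread. There 4999 genes (23.6%) were called, 2244 higher (10.6%) and 2755 lower (13%). Of the genes that rose after mock, 412 also rose after ABA, 37.8% of the mock list and 18.4% of the ABA list. Of those that fell, 832 also fell, 49.2% of the mock list and 30.2% of the ABA list. Counting sign alone, 851 of 1089 rising genes (78.2%) and 1385 of 1692 falling genes (81.9%) kept it after ABA, against 63.2% over all genes tested. Another 99 genes were called in opposite directions. The test of the difference between the 2 genotype effects called 1103 genes (5.21%), 153 of them among the rising and 285 among the falling genes. In 147 of the 153 the effect was lower after ABA and in 248 of the 285 it was higher, a direction that the choice of genes by their mock effect largely fixes. That count was 540 to 1493 with single libraries left out.

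By list, 4 of the 19 iron genes were higher and 1 lower after ABA, where 12 were higher and 3 lower after mock. Over all tested genes 10.6% were higher and 13% lower after ABA. The difference between the effects was called for 4 of the 19, against 5.21% of all tested genes. A call lost after ABA is thus not by itself a changed effect. Among the uptake and transport genes FRO2 had a log2 fold change of 4.16 after mock and 1.06 after ABA (difference −3.11, adjusted p = 0.0061), whereas IRT1 had 2.90 and 3.27 and NAS2 1.96 and 3.67, without a call for the difference. Of the Ib bHLH regulators, bHLH38 (1.86, adjusted p = 0.0496) was called after ABA and bHLH39 (1.19, 0.257), BHLH100 (5.0, 0.163) and BHLH101 (−0.50, 0.617) were not, and the difference was called for none of the 4. BTS, PYE and OPT3 were not called after ABA (−0.08, −0.30 and 0.15). Of the 13 phosphate genes 1 was lower and 1 higher after ABA, where 10 were lower after mock, and the difference was called for 4. PS2 went from −2.16 to −0.19 by log2 fold change (difference adjusted p = 0.022), MGD2 from −1.0 to 0.46 (0.0054) and SQD1 from −0.79 to 0.01 (0.0076), while RNS1 had −1.70 (−1.80 after mock). Among clock genes ELF4 (−1.53), PCL1 (−0.77), FKF1 (−0.72), LHY (0.60) and RVE8 (0.86) were called in the same direction after ABA, while CCA1 (0.04), RVE1 (0.17) and PRR5 (−0.15) were not, and the difference was called for RVE1 and PRR5. CBF2 was lower after mock (−1.39) and higher after ABA (0.62), and the difference was called (2.02, adjusted p = 0.0022). ESM1 (−2.20), AT5G03545 (−2.41), PI (3.87), MYBR1 (−1.35) and MYB73 (−1.07) were called in the same direction after ABA by log2 fold change, and the difference was not called for any of these 5.

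**Figure D5:**
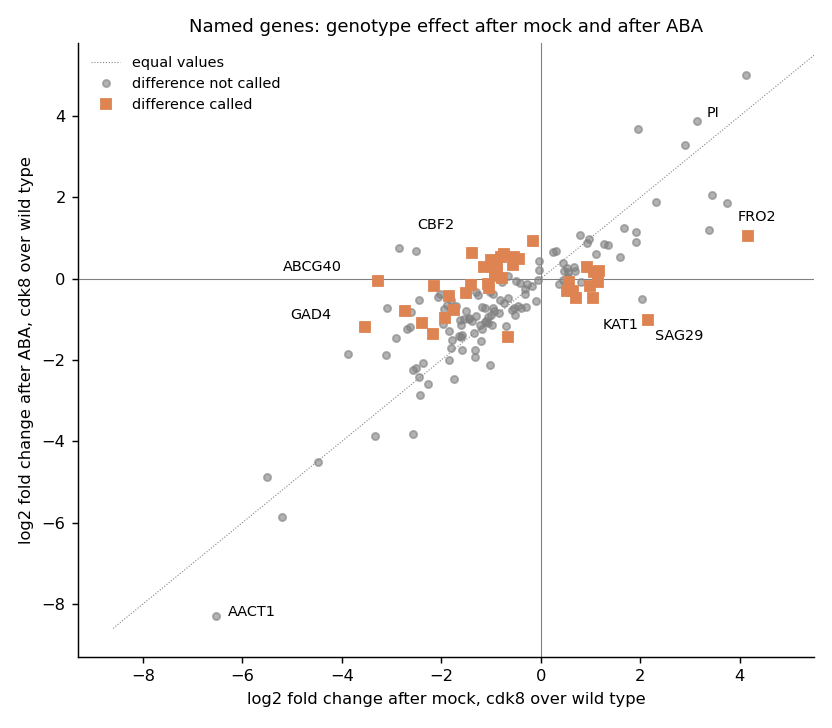
Log2 fold change of cdk8 over wild type after ABA (vertical axis) against that after mock (horizontal axis) for 162 genes named in the text. Orange squares mark genes whose difference between the 2 effects was called, and 3 defensin genes without reads in cdk8 mock libraries are left out. FRO2 and SAG29 lie well below the dotted line of equal values and ABCG40, GAD4 and CBF2 above it, while PI lies high and AACT1 low on both axes.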

How the data were processed

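RNA was isolated with Trizol, per the labels. FastQC, TopHat2, featureCounts and TAIR10 are named in the submitters' processing notes. The deposited values are raw counts of read pairs per gene, produced by featureCounts 1.4.6 per the file headers, with exons summed by gene. Per the file headers no strand option was set, so overlapping genes cannot be told apart. The sources used here do not give aligner settings or library preparation.

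Genes were kept by filterByExpr of edgeR 4.0.16 in R 4.3.3 over the 4 groups and scaled by TMM. Quasi-likelihood F tests came from 1 fit of 4 group means with 12 libraries, and SE is the log2 fold change divided by the root of F. The biological coefficient of variation was 0.126. Libraries with 3 reads of a gene measured 0.142 to 0.165 CPM before TMM scaling. Counting intervals (95%, exact) and floors cover counting error only. Symbols and promoter letters came from RefSeq TAIR10.1, read with the coordinates of the deposited table, whose introns began with GT and ended with AG in 97.7% of 120956 cases.

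The gene lists, families and named genes were chosen with earlier results of these data known. Shares of a list set beside those of all genes therefore describe that list and are not a test. Named genes were CDK8, RAP2.6 and OST1, the 5 neighbours of CDK8 on each side, the 14 largest rises and falls with at least 5 CPM in a group and no overlap, the 6 smallest adjusted p in each direction, and up to 4 called members of each list in each direction. A selection of these is printed. Of 608 list entries 578 were matched. Alternatives were RLE and upper-quartile scaling, other filters, organelle genes left out, only the 6 mock libraries, DESeq2 1.42.0, limma-voom (limma 3.58.1), stricter thresholds, a replicate block and each library left out. Same-numbered libraries of the genotypes did not deviate together (correlations −0.015, −0.061 and −0.098).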

Additional observations from a re-analysis of the deposited data

Results flagged for a closer look

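For 40 of the 165 genes given values here or in the plots, the genotype effect after ABA differed from that after mock by the test of the difference itself (edgeR quasi-likelihood test, adjusted p from 0.00064 to 0.0465). Over all genes tested, 1103 (5.21%) were called by this test. Most of the 165 were named for their mock effect, a choice that favours a smaller effect after ABA. Their share therefore cannot be set against that of all genes. Each value below is the log2 fold change after ABA minus that after mock. In 13 genes it was negative. Among transport and metabolism genes it was −3.17 for SAG29, −3.11 for FRO2, −1.53 for KAT1, −1.20 for CER3, −1.17 for BAS1, −0.78 for IGMT1 and −0.63 for UMAMIT30. Among regulators it was −1.24 for BRG2, −0.98 for BRG3, −0.94 for PYE, −0.90 for RVE1, −0.83 for HAB1 and −0.65 for FMA.

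In the other 27 genes the difference was positive. For phosphate and iron genes it was 0.80 for SQD1, 0.99 for PHT1;4, 1.46 for MGD2, 1.97 for PS2, 1.00 for FER1 and 1.12 for FER4. Among stress and defence factors it was 0.81 for STZ, 0.97 for ERF5, 1.28 for WRKY40, 1.35 for WRKY22, 1.93 for CBF1, 2.02 for CBF2, 1.43 for MYB12 and 1.41 for CAF1a. For clock and hormone genes it was 1.08 for PRR9, 1.25 for PRR5, 1.22 for IAA19, 1.07 for ACS6, 0.89 for ABF1, 0.93 for SNRK2.5 and 3.22 for ABCG40. For the remaining enzymes and division genes it was 0.82 for BGLU7, 1.14 for BGLU44, 0.93 for XTH9, 2.33 for GAD4, 1.02 for SYP111 and 1.33 for CYCA1;1. SAG29, KAT1, CER3 and HAB1 were called higher after mock and lower after ABA, and ABF1, SNRK2.5, ACS6, WRKY22 and CBF2 the reverse. FER1, WRKY40 and ABF1 share exon positions with another gene.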

How the results depend on the processing

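All 145 called genes with values here kept their direction under the alternatives tried, and 127 kept their call with each mock library left out. Most of them were named for a small adjusted p or a large change in these same libraries, a choice that favours both outcomes. Genes that rose after mock numbered 310 at adjusted p under 0.01, 202 at 2-fold, 1977 in a fit of only the 6 mock libraries and 471 to 716 with 1 library left out. Genes that fell numbered 819 at adjusted p under 0.01, 592 at 2-fold and 1015 to 1219 with 1 left out. The difference between the effects was called for 269 genes at adjusted p under 0.01, 1723 with DESeq2 and 540 to 1493 with 1 left out. The count called in the same direction after mock and ABA was 1244, 481 at adjusted p under 0.01 and 780 to 1390 with 1 left out. With a replicate block, 790 genes rose, 1411 fell, 650 were called for the difference and 973 were called in the same direction, although same-numbered libraries are not stated to be paired. The other scalings and filters, limma-voom and DESeq2 kept 93.2% to 100% of the 2781 calls, and leaving out 1 library kept 51.5% to 65.6%. With fewer libraries the fit has fewer degrees of freedom. Genes under about 1 CPM rest on few reads, and their fitted changes are rough.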

Other observations

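Further lists were counted in cdk8 after mock, where 13.1% of all tested genes were called. Of 15 genes of WRI1 and fatty acid synthesis 1 rose and none fell, of 14 genes of cell wall expansion and cellulose 1 fell and none rose, and of 18 aquaporins 1 rose and 1 fell. Of 19 phenylpropanoid and lignin genes 2 fell and none rose. Of 12 genes of light signalling with PIF factors 1 rose and 1 fell, and of 10 genes of mitochondrial retrograde signalling 2 rose and 1 fell, a share of 30.0%. Their median log2 fold changes ran from −0.11 for the light list to 0.04 for the fatty acid list.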
